A study of Plutella xylostella with 12 samples.

Results

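The miRNAs pxy-mir-12-5p and pxy-miR-283-5p belong to a conserved insect miRNA cluster, miR-12/miR-283/miR-304, and were found in small RNA libraries of the diamondback moth *Plutella xylostella*. Both were chosen by name, as 2 of the 105 miRNA names in the deposited counts. A name containing miR-304, and the 3p arms of miR-12 and miR-283, were searched for and had no match among these names. Both members are given by their 5p arm, the mature strand from the 5′ side of the hairpin.

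In *Drosophila* the 3 hairpins of the cluster lie close together in an intron of a protein-coding gene and can be made from 1 transcript. Mature miRNAs of such a cluster share that transcript and can still differ in processing and decay. In flies miR-12 and miR-283 act on components of the Hedgehog pathway, and miR-283 acts in clock neurons. In *Aedes* mosquito cells miR-12 responds to the bacterium *Wolbachia*. None of these roles was measured in the moth libraries.

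The libraries came from whole 3rd instar larvae of the Waite strain, an insecticide-susceptible population, that were still alive after exposure to chlorantraniliprole, a diamide insecticide that opens the ryanodine receptor of muscle. The 4 groups were larvae given 0.1 ppm (high dose) and collected at 24 h, larvae given 0.01 ppm (low dose) and collected at 24 h, and larvae given the high dose or the low dose and collected at 6 h, with 3 libraries each and 12 in all. All groups were exposed to the insecticide and consist of survivors. Unexposed control larvae, which the labels mention, were not analysed here, so the comparisons below are between doses and between times. In whole larvae, fewer cells that make a miRNA and less of it in each cell cannot be told apart.

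Totals per library ran from 28682 to 41214 counts at 24 h and from 10714 to 30676 at 6 h, and no row under 5 counts was listed in any file. The shallowest libraries were low-dose replicate 2 at 6 h, with 10714 counts, and high-dose replicate 1 at 6 h, with 19692. Among miRNAs that mark larval tissues, the muscle miRNA pxy-mir-1-3p and the gut-associated pxy-miR-281-5p were listed in all 12 libraries. So was the developmental timing miRNA pxy-let-7-5p. No name containing miR-133 or miR-124, miRNAs of muscle and of the nervous system, was found.

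Both members were listed in each of the 12 libraries, at moderate to low abundance. By mean share of the counts pxy-mir-12-5p ranked 35 and pxy-miR-283-5p ranked 44 among the 105 names, and both were among the 73 names with enough counts to be tested. The first took between 0.173% and 0.386% of the counts of a library, and the second between 0.0491% and 0.159%. Over the 12 libraries there were 960 counts of pxy-mir-12-5p and 403 of pxy-miR-283-5p.

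These counts set the precision. The highest count of pxy-mir-12-5p was 156, in high-dose replicate 3 at 24 h (exact 95% Poisson interval 132.5 to 182.5). Its lowest was 25, in low-dose replicate 2 at 6 h (16.2 to 36.9). For pxy-miR-283-5p the highest count was 59, in high-dose replicate 3 at 24 h (44.9 to 76.1), and the lowest was 10, in low-dose replicate 3 at 6 h (4.8 to 18.4). These intervals cover counting error only, since no molecular identifiers are named and reads from PCR are not independent molecules.

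In larvae given the high dose and collected at 24 h, pxy-mir-12-5p stood at 3400, 3190 and 3480 CPM (counts per 1000000 counts of the library, with TMM factors to make libraries comparable). At the low dose at 24 h the values were 2020, 2520 and 2390 CPM. All 3 high-dose libraries lay above all 3 low-dose libraries. At 6 h the levels were 1710, 2990 and 2720 CPM at the high dose, and 2470, 2360 and 2170 CPM at the low dose. High-dose replicate 1 at 6 h was the lowest of all 12 libraries, and the 2 groups at 6 h overlapped.

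By group, pxy-mir-12-5p averaged 3360 ± 146 CPM (SD, n = 3) at the high dose and 2310 ± 259 CPM at the low dose after 24 h. After 6 h it averaged 2470 ± 674 CPM at the high dose and 2340 ± 149 CPM at the low dose. The high-dose 24 h libraries lay above every library of the other 3 groups, whose ranges overlapped one another. The high-dose 24 h libraries did not overlap for 41.1% of the 73 tested names against the low dose at 24 h, for 20.5% against the high dose at 6 h and for 31.5% against the low dose at 6 h. The order of those 3 groups is therefore not resolved.

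The levels of pxy-miR-283-5p were 1440, 1400 and 1310 CPM in the high-dose libraries at 24 h, and 1470, 972 and 1200 CPM in the low-dose libraries at 24 h. The highest of these 6 values belonged to a low-dose library, so the groups overlapped. At 6 h they were 604, 1120 and 1010 CPM at the high dose, and 753, 1610 and 453 CPM at the low dose. Low-dose replicate 2 at 6 h, the shallowest library, held both the highest pxy-miR-283-5p level of the 12 and only 17 counts of it (exact 95% Poisson interval 9.9 to 27.2).

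By group, pxy-miR-283-5p averaged 1390 ± 65.9 CPM (SD, n = 3) at the high dose and 1210 ± 252 CPM at the low dose after 24 h, and 914 ± 273 CPM at the high dose and 938 ± 599 CPM at the low dose after 6 h. In these means both 24 h groups stood above both 6 h groups. The only groups of this miRNA that did not overlap were high-dose larvae at 24 h and high-dose larvae at 6 h. Of the 73 tested names, 20.5% did not overlap between these 2 groups. The spread between replicates was widest at the low dose after 6 h, with a coefficient of variation of 63.9%, where counting error alone gives 25.7%. It was narrowest at the high dose after 24 h, at 4.76%, where counting error alone gives 14.1%.

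**Figure D1:**
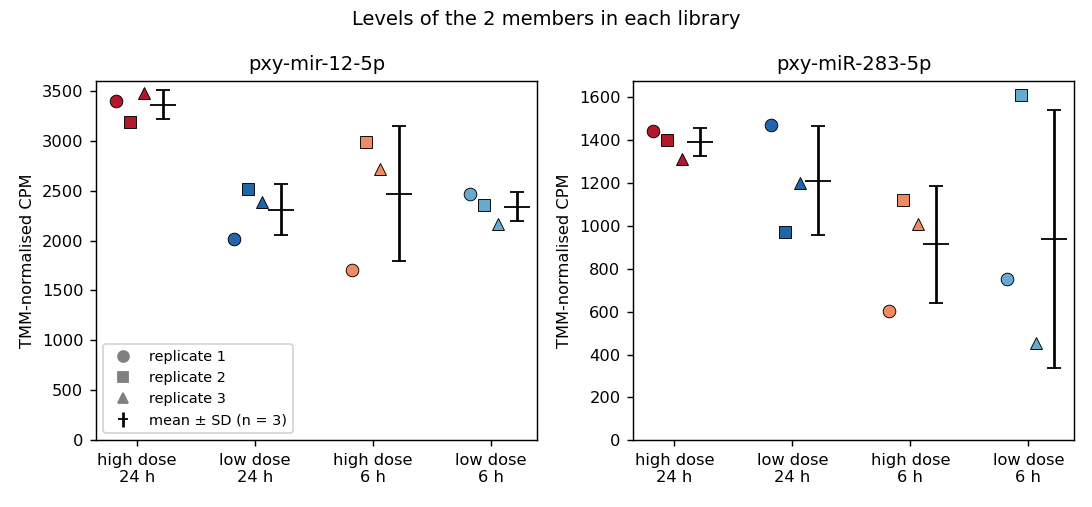
TMM-normalised CPM (vertical axes, from 0) of pxy-mir-12-5p (left) and pxy-miR-283-5p (right) in each of the 12 libraries by dose and time, with the mean and SD of each group beside its 3 points. For pxy-mir-12-5p the high-dose 24 h libraries (3190 to 3480 CPM) lie above all others, whereas for pxy-miR-283-5p the groups overlap except for the high dose at 24 h against 6 h.

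Between doses at 24 h, pxy-mir-12-5p rose 1.45-fold at the high dose (log2 fold change 0.54 ± 0.17 SE, 95% interval 0.17 to 0.90, Benjamini-Hochberg adjusted p = 0.0392 over 73 names, quasi-likelihood test of edgeR). In this comparison 16.4% of the tested names were called in either direction and 6.85% were called higher, so pxy-mir-12-5p was 1 of 5 higher names, beside 7 lower ones. With upper quartile factors the split was 13 higher and 2 lower, and with library totals 7 higher and 4 lower. It ranked 12 by p among the 73 names and 12 names were called, which places it last among the calls.

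The call on pxy-mir-12-5p rested on each of several libraries. Among 12 fits that left out 1 library each, 6 left out a library of the comparison at 24 h. Every fit that did not pass was among these 6. The call passed in 8 of the 12, with log2 fold changes from 0.48 to 0.74. It did not pass without high-dose replicate 1 at 24 h (adjusted p = 0.078), high-dose replicate 3 at 24 h (0.158), low-dose replicate 1 at 24 h (0.222) or low-dose replicate 3 at 24 h (0.0784). The size of the log2 fold change depended on the scaling, at 0.54 with TMM factors, 0.65 with relative log expression (RLE) factors, 0.76 with library totals and 0.92 with upper quartile factors, and it passed with each. The median over all tested names moved with the scaling as well, from -0.16 with TMM to 0.21 with upper quartile factors. Relative to that median, pxy-mir-12-5p stood at 0.70 with TMM and 0.71 with upper quartile factors. A change of scaling moves all names by nearly the same amount, so this value could hardly differ between scalings.

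For pxy-miR-283-5p the log2 fold change between doses at 24 h was 0.19 ± 0.30 SE (95% interval -0.44 to 0.83, adjusted p = 0.754, edgeR), which did not pass. The interval holds both no change and the value measured for pxy-mir-12-5p. With TMM factors both members were among the 26 of the 73 tested names with a positive log2 fold change. The median over all tested names was -0.16 with TMM and 0.21 with upper quartile factors, so the number of positive names depends on the scaling. The developmental timing miRNA pxy-let-7-5p also rose at the high dose at 24 h (1.79-fold, log2 fold change 0.84, adjusted p = 0.00116, edgeR). Of the tissue markers, pxy-miR-281-5p fell (1.53-fold, -0.61, adjusted p = 0.00082, edgeR) and pxy-mir-1-3p stood at 0.45 (adjusted p = 0.478). The 3p arms pxy-miR-281-3p (0.07, adjusted p = 0.784, edgeR) and pxy-let-7-3p (-0.46, adjusted p = 0.782) were not called. The part of these names in the values of the 2 members was not tested.

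Between doses at 6 h neither member passed. The log2 fold change was 0.09 ± 0.20 SE for pxy-mir-12-5p (95% interval -0.33 to 0.51, adjusted p = 0.892, edgeR) and 0.16 ± 0.38 for pxy-miR-283-5p (-0.64 to 0.96, adjusted p = 0.892). In this comparison 1.37% of the tested names were called, in either direction. Averaged over both times, pxy-mir-12-5p stood at 0.31 ± 0.13 (95% interval 0.04 to 0.59, adjusted p = 0.117, edgeR) and pxy-miR-283-5p at 0.17 ± 0.24 (-0.33 to 0.68, adjusted p = 0.628), against 13.7% of names called. Without high-dose replicate 1 at 6 h, the library with its lowest level, pxy-mir-12-5p passed in the averaged comparison (0.43, adjusted p = 0.0183, edgeR).

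The dose effect on pxy-mir-12-5p was called at 24 h and not at 6 h, but the difference between these effects was 0.44 ± 0.27 SE on the log2 scale (95% interval -0.11 to 1.00, adjusted p = 0.411, edgeR interaction term) and did not pass. For pxy-miR-283-5p that difference was 0.03 ± 0.50 (-1.01 to 1.07, adjusted p = 1). In the interaction 8.22% of the tested names were called.

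Between 24 h and 6 h no call was made on either member. Averaged over doses, pxy-miR-283-5p stood at a log2 fold change of 0.56 ± 0.24 SE (1.48-fold, 95% interval 0.05 to 1.07, adjusted p = 0.157, edgeR), and pxy-mir-12-5p at 0.21 ± 0.13 (-0.07 to 0.48, adjusted p = 0.318), where 11% of the tested names were called. For pxy-miR-283-5p the values were 0.58 ± 0.33 at the high dose (adjusted p = 0.379, edgeR) and 0.55 ± 0.35 at the low dose (adjusted p = 0.338). With 1 library left out they ran from 0.32 (without high-dose replicate 1 at 6 h) to 0.70 at the high dose, and from 0.12 (without low-dose replicate 3 at 6 h) to 0.90 (without low-dose replicate 2 at 6 h) at the low dose. For pxy-mir-12-5p they were 0.43 ± 0.18 at the high dose (adjusted p = 0.194, edgeR) and -0.02 ± 0.19 at the low dose (adjusted p = 0.948). Without high-dose replicate 1 at 6 h, its value was 0.19 at the high dose and 0.03 averaged over doses. Between times 6.85% of the tested names were called at the high dose and 19.2% at the low dose. The comparisons between doses and between times share libraries, so their values are not independent of each other.

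Without low-dose replicate 2 at 6 h, the library that holds the highest level of pxy-miR-283-5p, the difference between times averaged over doses passed for this miRNA (0.74, adjusted p = 0.0289, edgeR). Without low-dose replicate 3 at 6 h, which holds the lowest, it was 0.33 (adjusted p = 0.436). With library totals in place of TMM factors, pxy-mir-12-5p passed between times at the high dose (0.59, adjusted p = 0.046).

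**Figure D2:**
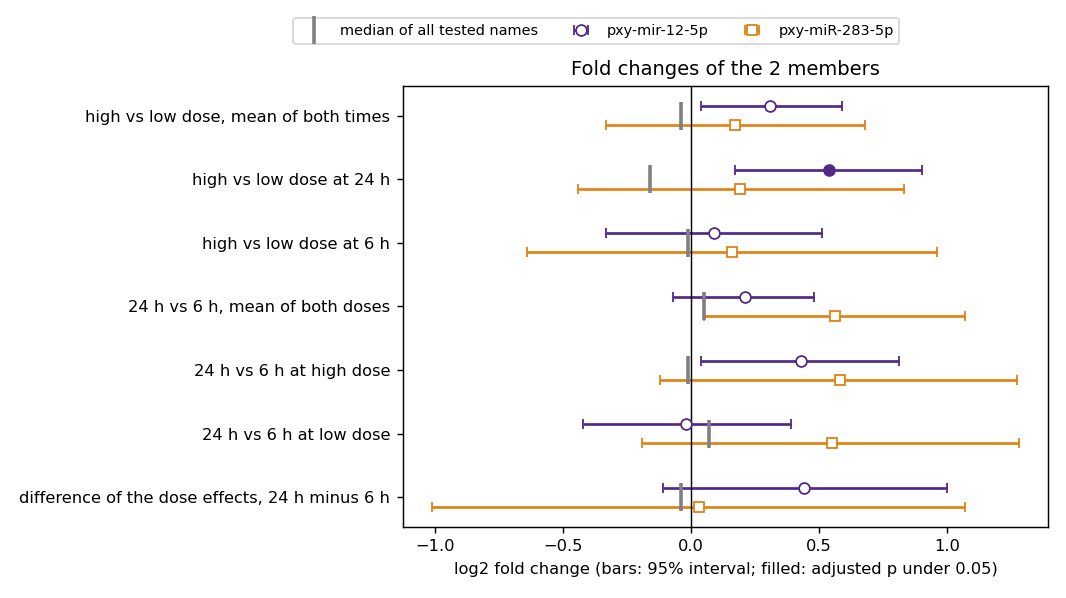
Log2 fold changes (horizontal axis) of the 2 members in 7 comparisons of the edgeR fit, with 95% intervals, and the median over all 73 tested names as a grey bar. The only filled symbol, an adjusted p under 0.05, is pxy-mir-12-5p between doses at 24 h (0.54), and the intervals of pxy-miR-283-5p are wider than those of pxy-mir-12-5p throughout.

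A file can list a miRNA name in more than 1 row, and the sources used here do not say how these rows differ. The 2 members differed in how their counts were spread over rows. The highest row held a median of 86.2% of the counts of pxy-mir-12-5p in a library (range 67.2% to 100%) and 70.2% of those of pxy-miR-283-5p (56.8% to 100%). A library listed 1 to 3 rows of the first and 1 to 4 of the second.

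The number of rows moved with time and with the library totals. At 24 h the 6 libraries listed 22 rows of pxy-miR-283-5p, 3 or 4 in each, and at 6 h they listed 10, with 1 or 2 in each. Rows other than the highest held 39.7% of its counts at 24 h and 18.1% at 6 h. For pxy-mir-12-5p these rows held 16.5% at 24 h and 13.7% at 6 h. Of the 32 rows of pxy-miR-283-5p, 7 stood at 5 counts, the lowest value in the files, against 3 of the 29 rows of pxy-mir-12-5p.

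Counted by the highest row alone, which held at least 10 counts in every library, the difference between times averaged over doses was 0.15 for pxy-miR-283-5p (adjusted p = 0.727, edgeR), in place of 0.56 from the sum of rows. At the low dose it was 0.06 in place of 0.55, and at the high dose 0.24 in place of 0.58. Between doses at 24 h the highest row gave 0.59 for pxy-mir-12-5p (adjusted p = 0.0249, edgeR) and 0.43 for pxy-miR-283-5p (adjusted p = 0.28). The call on pxy-mir-12-5p between doses was thus made on either count, whereas the value of pxy-miR-283-5p between times was larger with the other rows included.

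**Figure D3:**
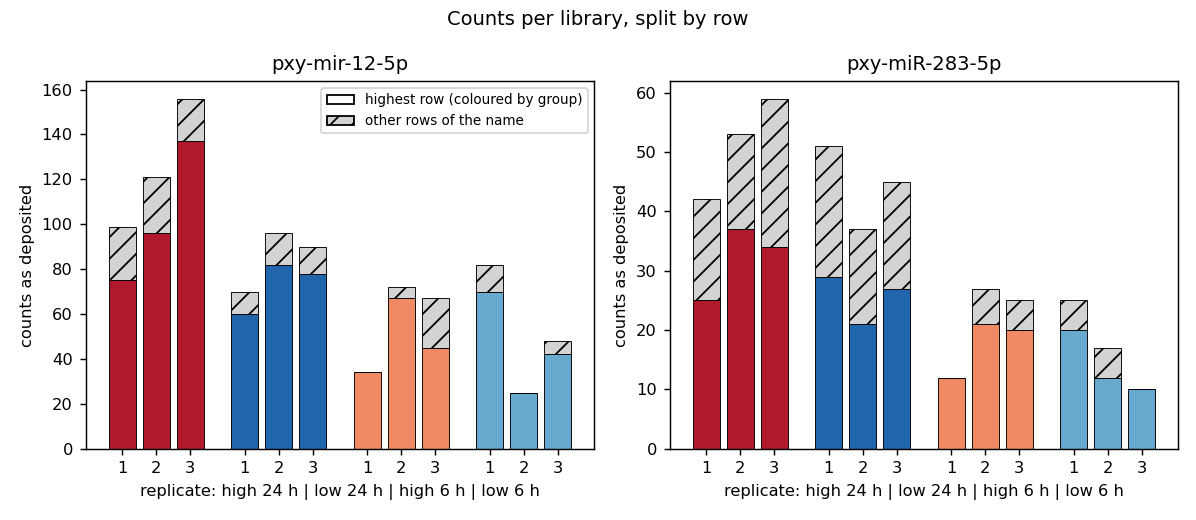
Deposited counts (vertical axes, from 0) of pxy-mir-12-5p (left) and pxy-miR-283-5p (right) in each library, split into the highest row (coloured by group) and the other rows of the name (hatched). The hatched part is largest for pxy-miR-283-5p at 24 h, where it makes up 39.7% of the counts, against 18.1% at 6 h.

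The ratio of the 2 members within a library does not depend on the scaling of libraries. In each of the 12 libraries pxy-mir-12-5p had more counts than pxy-miR-283-5p. The ratio was 2.34, 2.27 and 2.63 at the high dose and 1.37, 2.57 and 1.99 at the low dose after 24 h. After 6 h it was 2.76, 2.64 and 2.65 at the high dose and 3.24, 1.46 and 4.62 at the low dose. The 6 high-dose libraries lay between 2.27 and 2.76, while the 6 low-dose libraries lay between 1.37 and 4.62.

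On the log2 scale the ratio averaged 1.27 ± 0.11 (SD, n = 3) at the high dose and 0.94 ± 0.46 at the low dose after 24 h, and 1.42 ± 0.04 at the high dose and 1.48 ± 0.85 at the low dose after 6 h. Between doses at 24 h the mean log2 ratio differed by 0.33 (exact two-sided permutation p = 0.3, adjusted p = 0.6 over 6 comparisons), so a larger change of pxy-mir-12-5p than of pxy-miR-283-5p was not shown. That difference was 0.09 without low-dose replicate 1 and 0.55 without low-dose replicate 2 at 24 h. Between doses at 6 h it differed by -0.06 (exact permutation p = 1). With 3 against 3 libraries the smallest p that this test allows is 0.1.

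Averaged over times, the log2 ratio differed between doses by 0.14 (exact stratified permutation p = 0.67). Averaged over doses, it differed between 24 h and 6 h by -0.35 (exact stratified permutation p = 0.21, adjusted p = 0.6). The stratified test could have reached 0.005. Between times at the high dose the difference was -0.15 (exact permutation p = 0.1, the smallest possible, adjusted p = 0.6), and at the low dose it was -0.55 (exact permutation p = 0.4). Without low-dose replicate 2 at 6 h the low-dose value was -1.01 and the averaged one -0.58, and without low-dose replicate 3 at 6 h they were -0.18 and -0.17. Counted by the highest row alone, the difference between times was 0.22 at the high dose and 0.05 averaged over doses, which turned its direction.

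The spread of the ratio differed by dose in a way noticed only after the values were seen. Over 6 libraries each, the SD of the log2 ratio was 0.11 at the high dose and 0.68 at the low dose, and counting error alone gives 0.32 at the high dose and 0.36 at the low dose. The high-dose ratios were thus closer together than counting error alone gives on average, and the low-dose ratios farther apart. The difference in spread between doses was not tested.

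**Figure D4:**
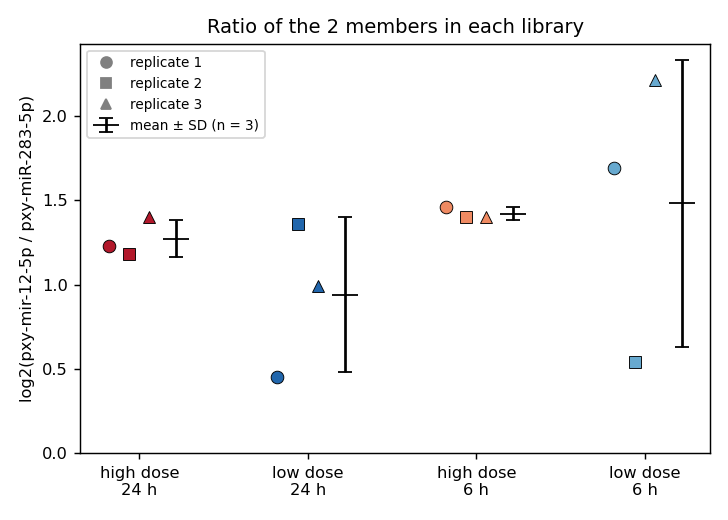
Log2 ratio of pxy-mir-12-5p to pxy-miR-283-5p counts (vertical axis, from 0) in each library by dose and time, with the mean and SD of each group. High-dose libraries lie within 1.18 to 1.46, and low-dose libraries within 0.45 to 2.21.

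Whether the 2 members went up and down together was measured by the correlation of their log2 CPM. Over all 12 libraries Pearson's r was 0.52 (permutation p = 0.0858, adjusted p = 0.5 over 8 coefficients) and Spearman's rho was 0.27 (permutation p = 0.391, adjusted p = 0.625). Without the 2 libraries farthest from the median of pxy-mir-12-5p, high-dose replicate 1 at 6 h and high-dose replicate 3 at 24 h, r was 0.32. With all libraries it was 0.66 with upper quartile factors (permutation test, adjusted p = 0.085), 0.50 with library totals and 0.43 with the highest row. With 1 library left out it ran from 0.36 to 0.68. None of these tests passed. The 2 values of a library share its scaling factor, which by itself can move them together. A common rise and fall of the pair over the 12 libraries was therefore not shown at this depth.

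Within times the relation did not pass either. Over the 6 libraries at 24 h, r was 0.20 (exact permutation p = 0.71) and rho was -0.09 (exact permutation p = 0.919), and over the 6 at 6 h, r was 0.56 (exact permutation p = 0.237) and rho was 0.60 (exact permutation p = 0.242). With 2 libraries left out by the same rule, r was 0.82 at 24 h and 0.46 at 6 h, over 4 libraries each. The r at 24 h depended on the scaling and on single libraries: it was 0.61 with library totals, 0.76 with upper quartile factors and 0.45 with the highest row, and ran from 0.02 to 0.78 with 1 library left out, the highest without low-dose replicate 1 at 24 h. None of these passed. After removal of the group means, the deviations of the 12 libraries gave r = 0.39 (exact permutation p = 0.25) and rho = 0.24 (exact permutation p = 0.558). That r was 0.05 without high-dose replicates 1 and 2 at 6 h, the 2 libraries farthest from the median. There the group means of all 12 libraries were kept, whereas with 1 library left out they were taken anew. The r was then 0.01 without high-dose replicate 1 at 6 h alone and 0.30 without replicate 2 alone, so it rested on replicate 1. It was 0.21 with library totals, 0.06 with the highest row and 0.40 with upper quartile factors. Without low-dose replicate 2 at 6 h it was 0.59.

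The same libraries divided by dose, a division chosen after the ratios were seen, gave r = 0.98 and rho = 0.83 over the 6 high-dose libraries, and r = -0.05 and rho = -0.26 over the 6 low-dose libraries. These values largely restate the narrow and wide spread of the ratio at the 2 doses, so they are given as a description. In permutation tests adjusted over 12 coefficients none passed. The adjusted p was 0.0667 for r and 0.343 for rho at the high dose, and 0.919 and 0.852 at the low dose. At the high dose r was 0.72 over the 4 libraries left without high-dose replicates 1 and 3 at 6 h, and at the low dose -0.79 without low-dose replicate 1 at 24 h and low-dose replicate 3 at 6 h.

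**Figure D5:**
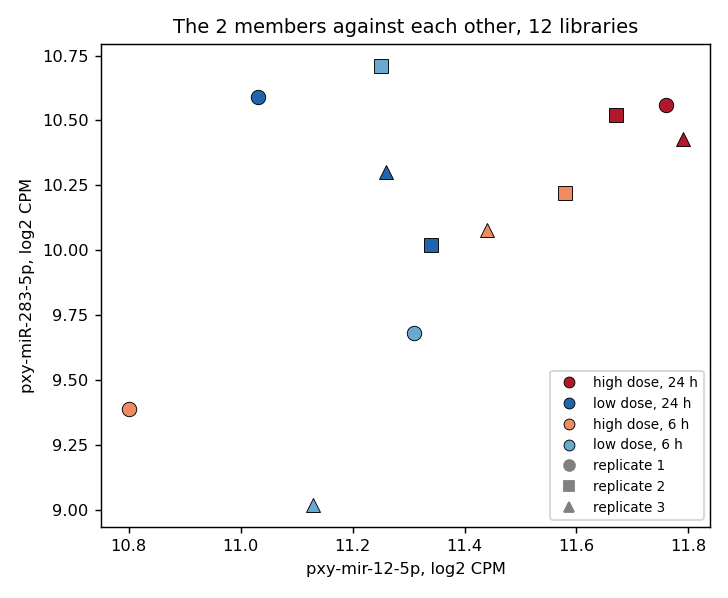
Log2 CPM of pxy-miR-283-5p (vertical axis) against that of pxy-mir-12-5p (horizontal axis) in the 12 libraries, coloured by dose and time and shaped by replicate number (r = 0.52). The high-dose libraries run from low-left to high-right, whereas the low-dose libraries differ by more in pxy-miR-283-5p than in pxy-mir-12-5p.

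Over the 4 groups the mean log2 CPM of both members was highest at the high dose after 24 h, at 11.74 for pxy-mir-12-5p and 10.50 for pxy-miR-283-5p. For pxy-miR-283-5p that group overlapped both low-dose groups, so its place at the top is not resolved. In these means the other 3 groups followed a different order for each. Their ranges overlapped one another for both members, so neither order is resolved. At the low dose after 24 h, the means were 11.21 for pxy-mir-12-5p, its lowest group, and 10.30 for pxy-miR-283-5p, its second highest. The 6 h means of pxy-mir-12-5p were 11.27 at the high dose and 11.23 at the low dose, and those of pxy-miR-283-5p were 9.90 at the high dose and 9.80 at the low dose. In mean CPM the 6 h order of pxy-miR-283-5p was the other way, at 914 for the high dose and 938 for the low dose.

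Among the 72 other tested names, pxy-miR-283-5p ranked 7 in likeness to pxy-mir-12-5p by Pearson's r over the 12 libraries. The names most like pxy-mir-12-5p were pxy-miR-308-3p (r = 0.77), pxy-mir-1175-3p (0.77) and pxy-let-7-5p (0.69). Conversely, pxy-mir-12-5p ranked 11 in likeness to pxy-miR-283-5p. The names most like pxy-miR-283-5p were pxy-miR-281-3p (0.71), pxy-miR-8521b-3p (0.70) and pxy-miR-10-5p (0.69). None of these names appeared among the 3 nearest of both members. These values describe likeness over 12 libraries that share scaling and depth, and no test is attached to them.

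Beside the r of 0.52 for pxy-mir-12-5p and pxy-miR-283-5p, a few chosen pairs of a shared precursor or cluster were taken over the same 12 libraries. These pairs were taken by name, and their clusters in the moth were not checked either. Further pairs of this kind among the tested names, such as the 2 arms of miR-281, were not taken. The r was 0.22 for the 2 arms pxy-mir-278-5p and pxy-mir-278-3p, -0.01 for pxy-miR-750-3p with pxy-mir-1175-3p, 0.18 for pxy-miR-750-3p with pxy-mir-1175-5p, and -0.24 for pxy-miR-277-3p with pxy-mir-317-3p. With the group means removed the order was another: r was 0.39 for the cluster pair, 0.55 for pxy-miR-277-3p with pxy-mir-317-3p, 0.47 for pxy-miR-750-3p with pxy-mir-1175-5p, -0.11 for the arms of mir-278 and -0.25 for pxy-miR-750-3p with pxy-mir-1175-3p. The median over all 2628 pairs of tested names was 0.03, and 10.1% of them had a higher r than the cluster pair, all without removal of group means. These are descriptions, and that the cluster pair stands apart from the other pairs was not tested.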

How the data were processed

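Each library has a file of whole-number counts by miRNA name, used as deposited by the authors. Per the labels' protocols, libraries were prepared with the Illumina TruSeq small RNA kit and read on a HiSeq. No source used here names the mapper or the miRNA reference. Rows of a name were summed. The labels call libraries of a group biological replicates, and p-values measure the spread between them. Each pair within a group differed beyond sampling noise.

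All names were fitted with edgeR 4.0.16 (R 4.3.3) over the 12 libraries, using 1 mean per group, TMM factors, glmQLFit and glmQLFTest. Names were filtered with filterByExpr by group at a minimum count of 10, which kept 73 and left 32 untested. P-values were adjusted over the 73 names (Benjamini-Hochberg), and a name was called at an adjusted p under 0.05. The SE was obtained as the size of the log2 fold change over the root of the F statistic, and 95% intervals use 19 degrees of freedom. To check the code, the fit was run on simulated counts with the same spread for all names. That run does not measure how well the fit performs on these libraries.

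Log2 CPM used a prior count of 2 and log2 ratios a pseudocount of 0.5. Ratios were compared by exact permutation over libraries (within dose or time where averaged). Correlations over 12 libraries used 100000 permutations, those over 6 all pairings, and deviations all permutations within groups.

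The 2 members, the names set beside them (any miR-304, other arms, the 3 most alike, and fixed pairs) and the tests were chosen with earlier results of these data known. The pair of miR-9 with miR-79 was not taken, since miR-9 was among the tested names and miR-79 was not. Alternatives were DESeq2 1.42.0, other scalings and filters, the highest row, the replicate number as a block, a fit on a comparison's own libraries, and the omission of each library. Leaving out the 2 shallowest libraries together and the correlations by dose were added after the data were seen.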

Additional observations from a re-analysis of the deposited data

How the results depend on the processing

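Values are log2 fold changes, log2 ratio differences or r, as named. The call on pxy-mir-12-5p between doses at 24 h held with DESeq2 (0.65, adjusted p = 0.0174), every other scaling and filter, the highest row and the comparison's own libraries. With the replicate number as a block (replicate block) it was 0.54 with adjusted p = 0.0541. In the labels, libraries of different groups shared only a replicate number. Deviations of same-numbered libraries correlated above 0.1 in 4 of 18 pairs (-0.32 to 0.37). Those 4 were all between doses at the same time. There r was 0.06, 0.32 and 0.35 at 24 h, and 0.37, 0.14 and -0.19 at 6 h. Whether same-numbered libraries of a time are paired was not settled. The block changed no other call on the members or the ratio. With 1 library left out the fold ran from 0.48 to 0.74.

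In the averaged dose comparison, pxy-mir-12-5p passed with upper quartile factors (0.59), with at least 10 counts in every library (0.39) and without the 2 shallowest libraries (0.48), and ran from 0.26 to 0.43 with 1 library left out. Between times at the high dose it passed with library totals (0.59). Between doses at 6 h it was -0.05 with library totals, and -0.07 to 0.28 with 1 library left out.

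For pxy-miR-283-5p, the averaged time difference passed without the 2 shallowest libraries (0.64) and ran from 0.33 to 0.74 with 1 left out. Its dose value at 6 h ran from -0.18 to 0.63 and its interaction from -0.33 to 0.42 with 1 left out, and the interaction was -0.50 without the 2 shallowest.

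The log2 ratio between doses, averaged over times, was -0.02 with the highest row and -0.11 without the 2 shallowest libraries, and ran from -0.10 to 0.32 with 1 left out. At 6 h it ran from -0.53 to 0.30. With the highest row, the ratio between times was 0.22 at the high dose and 0.05 averaged over doses. The r of the deviations was -0.13 without the 2 shallowest. The cause of these changes was not tested.

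Counts of called names also moved. With 1 library left out they ran from 8 to 19 between doses at 24 h (12 with all libraries), 0 to 7 at 6 h (1), 4 to 16 averaged (10), 3 to 13 between times averaged (8), 2 to 7 at the high dose (5), 4 to 13 at the low dose (14) and 3 to 9 for the interaction (6). Other settings also moved them by over 1.5 times: 0 with RLE factors, the block or the comparison's own libraries and 2 to 4 with 4 others between doses at 6 h, 6 to 8 with 5 settings between times at the low dose, 3 with upper quartile factors between times at the high dose and for the interaction, and 5 with at least 10 counts in every library between times averaged. Without the 2 shallowest libraries they were 8 at 6 h, 19 averaged between doses, 15 between times averaged and 12 for the interaction. Counts of 10 to 59 for pxy-miR-283-5p limit what could be detected of it.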
